A study of Mus musculus with 4 samples.

Results

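The metabotropic glutamate receptors are G protein-coupled receptors for glutamate, and 6 of their genes, Grm2, Grm3, Grm4, Grm5, Grm7 and Grm8, were followed here among 37437 listed genes. They were taken by symbol, and the rule uses no measured value, but the set was proposed with earlier results of these data known. The 6 were compared between shCTCF, primary mouse cortical culture in which CTCF was knocked down by adeno-associated virus, and shLAC, the same kind of culture with knockdown of lacZ, a bacterial gene, as control. CTCF binds DNA through its zinc fingers and, together with cohesin, anchors loops of chromatin. Each group had 2 libraries of total RNA, and the labels leave unsaid if these were separate cultures. The p-values then cover only the spread between the libraries sequenced, and that spread may be technical. Strain, age and the hairpin promoter are not stated in the labels.

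Unlike the ion channels that glutamate opens, these receptors act through G proteins. Group I (Grm5 among the 6) couples to Gq, phospholipase C and release of calcium from internal stores, and sits mainly at the edge of the postsynaptic density. Group II (Grm2 and Grm3) and group III (Grm4, Grm7 and Grm8) couple to Gi/o and lower cyclic AMP. Group III receptors sit mostly on axon terminals, where they restrain transmitter release. In cortex, astrocytes as well as neurons carry Grm3 and, in the young brain, Grm5.

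Levels are given as TPM, a length-corrected share of all transcripts, so that genes can be set side by side. Such values carry no read numbers: library depth is unknown, and counting intervals cannot be given. In shLAC replicate 2, 13 satellite-like predicted genes held 20.2% of all TPM, against 0.405% to 1.86% in the other 3 libraries. These genes were picked for being far higher in shLAC replicate 2 than elsewhere, so the direction of that contrast follows from the choice. Satellite-like is only a name here, as their sequences were not checked for repeats. Every one of the 6 receptors had its lowest deposited TPM in that library. Values called scaled were therefore divided by a median-ratio factor per library, taken over protein-coding genes, and changes are log2 fold changes of scaled TPM + 1 from limma, shCTCF minus shLAC. Without scaling, the median of the 11268 coding genes fitted was 0.17 on the log2 scale. Ctcf was at 3.25 and 3.40 scaled TPM in shCTCF and at 8.11 and 8.80 scaled TPM in shLAC (log2 fold change -1.13, SE 0.0666, limma adjusted p = 0.00288).

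The 6 genes lie apart in the mouse genome (GRCm38, GENCODE vM21) and differ widely in size. Grm7 (ENSMUSG00000056755, chromosome 6, 110645581 to 111567230, + strand) spans 922 kb and Grm8 (ENSMUSG00000024211, chromosome 6, 27275119 to 28135178, - strand) spans 860 kb. Grm5 (ENSMUSG00000049583, chromosome 7, 87584168 to 88134907, + strand) spans 551 kb and Grm3 (ENSMUSG00000003974, chromosome 5, 9485541 to 9725170, - strand) spans 240 kb. Grm4 (ENSMUSG00000063239, chromosome 17, 27422387 to 27521403, - strand) spans 99.0 kb and Grm2 (ENSMUSG00000023192, chromosome 9, 106643095 to 106656082, - strand) only 13.0 kb. Their longest complete coding sequences run from 2619 nt in Grm2 to 3612 nt in Grm5. Within a receptor group, coding sequences were 68.8% to 70.4% identical at aligned bases (4 pairs), and between groups 60.8% to 64.9% (11 pairs).

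A short stretch near the end of the Grm5 coding sequence is shown because Homer proteins, which tie the receptor to the postsynaptic scaffold, bind the proline-rich site it encodes. It is printed from the GENCODE vM21 transcript, 5′ to 3′, with codons 1156 to 1160 in capitals: a proline pair, any pair of codons, and phenylalanine.
Grm5: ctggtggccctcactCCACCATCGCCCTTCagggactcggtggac
This codon pattern lay 43 codons before the end of Grm5. It was found in frame at 1 place each in Grm2 and Grm7, 682 and 718 codons before the end, and at none in Grm3, Grm4 and Grm8.

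RefSeq promoter sequences (GRCm38.p6) were matched for 4 of the 6 members, Grm2, Grm3, Grm7 and Grm8, with 7 promoters in all. The 250 bases before a RefSeq start of Grm7 and of Grm3, the most abundant members with an entry, are shown. RefSeq starts differ from the GENCODE gene bounds given above. Promoters are printed because CTCF was the factor knocked down and takes its name from the letters CCCTC. Matches to CCCTC on either strand are in capitals.
Grm7, chr6:110645262-110645511, + strand: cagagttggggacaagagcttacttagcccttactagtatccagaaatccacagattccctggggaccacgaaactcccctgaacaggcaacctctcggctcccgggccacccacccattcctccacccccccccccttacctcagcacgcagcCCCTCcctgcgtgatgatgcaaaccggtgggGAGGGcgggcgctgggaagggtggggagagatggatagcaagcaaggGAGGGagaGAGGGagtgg
Grm3, chr5:9725353-9725602, - strand: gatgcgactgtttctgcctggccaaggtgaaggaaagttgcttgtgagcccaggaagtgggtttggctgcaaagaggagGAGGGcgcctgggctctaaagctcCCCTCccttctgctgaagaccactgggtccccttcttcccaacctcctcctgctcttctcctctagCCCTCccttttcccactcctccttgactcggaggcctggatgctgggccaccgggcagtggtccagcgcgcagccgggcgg
The Grm7 stretch holds 4 matches and the Grm3 stretch 3, and the 250 bases before a second RefSeq start of Grm7, which overlap those shown, hold 6. Windows of the same size hold 1 match for Grm2, and 0, 4 and 3 for the Grm8 starts. Grm4 and Grm5 had no promoter matched. Of all 32851 promoters of 300 bases, 66% hold at least 1 match to CCCTC, with a median of 1. A longer CTCF core, CCA, AG and GGC with NN between them, was searched on both strands and was in 0 of the 7 member promoters and 2.43% of all promoters. No match says only that these letters are not in this window. A match to CCCTC is common and is a description of the letters, not a bound site.

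Grm5, the group I receptor among the 6, fell in CTCF knockdown. It was the most abundant of the 6, at 35.5 and 35.3 scaled TPM in shCTCF, against 43.9 and 44.0 scaled TPM in shLAC. Both shCTCF libraries lay below both shLAC libraries, and the gap was far wider than the spread within either group. The shCTCF mean was 80.6% of the shLAC mean, and the log2 fold change was -0.30 (SE 0.0445, 95% interval -0.41 to -0.20, limma adjusted p = 0.0166). Fewer cells of a type and less RNA per cell cannot be told apart in such bulk RNA.

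The Grm5 call was lost without the scaling and in the fits that leave out a shCTCF library. As deposited, Grm5 was at 39.0 and 37.0 TPM in shCTCF and at 46.0 and 36.6 TPM in shLAC, so the groups overlapped (log2 fold change -0.11, limma adjusted p = 0.809). The change stayed at -0.30 or -0.31 with either shCTCF library left out, where the limma adjusted p was 0.0625 without shCTCF replicate 1 and 0.0941 without shCTCF replicate 2. In every such fit the group left with 1 library is assumed to vary like the other. Without shLAC replicate 2, the library in which the genes named satellite-like were high, the log2 fold change was -0.30. Fitted with all 12816 genes past the filter after scaling, the limma adjusted p was 0.0619. With 2 libraries on each side, an exact 2-sided permutation test cannot go below p = 0.333, the value Grm5 gave.

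**Figure D1:**
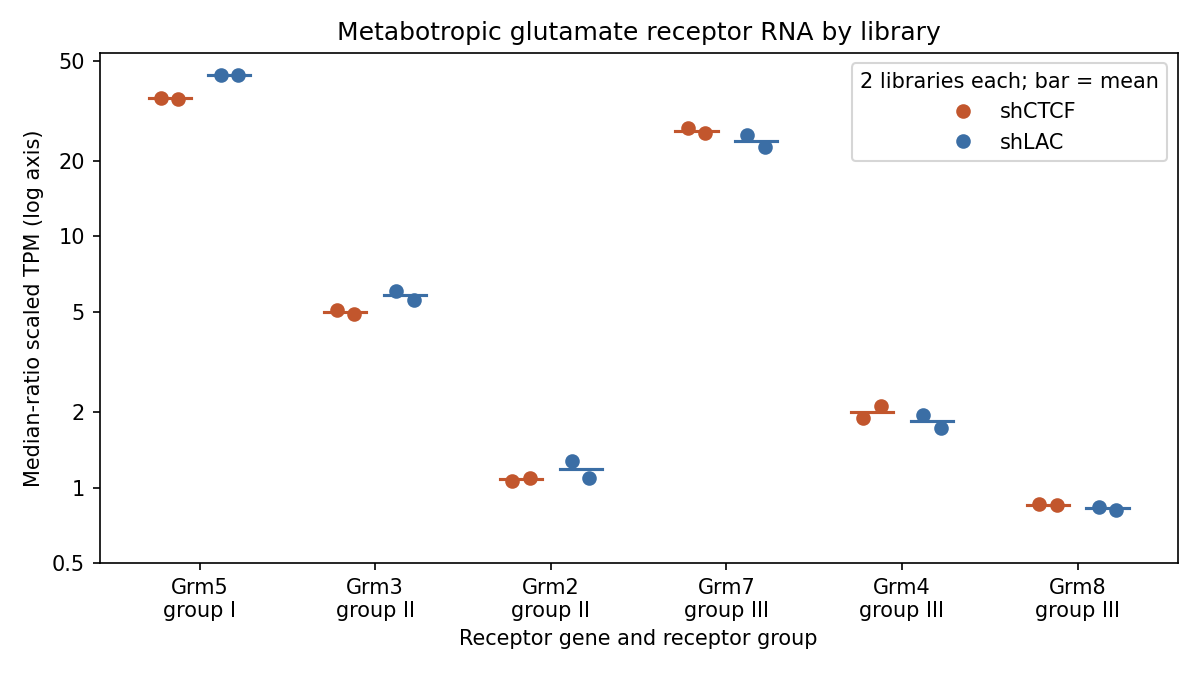
Scaled TPM of the 6 receptor genes (log axis), with 1 point per library, shCTCF left of shLAC, a bar at each mean, and genes ordered by receptor group. Grm5 sits at 35.3 to 35.5 in shCTCF and at 43.9 to 44.0 in shLAC, while the 2 groups lie close together in Grm2, Grm4 and Grm8.

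Of the 6 receptors, 5 passed the filter of 1 TPM in at least 2 libraries, 1 fell, 0 rose and 4 did not pass the test. Over all 11268 coding genes fitted, 6.06% were called in either direction, 2.58% higher and 3.48% lower. Scaled values of the groups did not overlap in Grm5, Grm3 and Grm7 among the 5 fitted members, but 54.7% of all fitted genes also had groups that did not overlap, 27.5% with shCTCF above shLAC and 27.1% with shCTCF below it. That count is thus no result about the receptors.

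Neither group II receptor passed the test. Grm3, which also binds the peptide NAAG, was at 5.08 and 4.93 scaled TPM in shCTCF and at 6.06 and 5.60 scaled TPM in shLAC. The groups did not overlap. Its log2 fold change was -0.18 (SE 0.0647, 95% interval -0.34 to -0.03, limma adjusted p = 0.152). As deposited, the Grm3 groups overlapped, at 5.57 and 5.17 TPM in shCTCF and 6.34 and 4.66 TPM in shLAC. Gm42455, a gene model on the same strand that overlaps the Grm3 span, was at 3.77 and 3.34 TPM in shCTCF and at 3.07 and 3.75 TPM in shLAC. Only the spans were compared, so it is not known if the exons overlap and reads are shared.

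Grm2, a presynaptic autoreceptor, was at 1.07 and 1.10 scaled TPM in shCTCF and at 1.28 and 1.09 scaled TPM in shLAC. The groups overlapped, and the log2 fold change was -0.07 (95% interval -0.26 to 0.12, limma adjusted p = 0.647), with a positive sign in the values as deposited. It was -0.0079 without shLAC replicate 1 and -0.14 without shLAC replicate 2. Summed over group II, scaled TPM was 6.15 and 6.03 in shCTCF and 7.34 and 6.70 in shLAC (86.8% of the shLAC mean, exact permutation p = 0.333).

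No group III receptor passed the test. Grm7, the release-restraining receptor found at the active zone, was at 26.9 and 25.8 scaled TPM in shCTCF and at 25.4 and 22.8 scaled TPM in shLAC. Both shCTCF values were above both shLAC values, but the group means differed by less than the gap between the shLAC libraries. The log2 fold change was 0.13 (SE 0.0638, 95% interval -0.02 to 0.28, limma adjusted p = 0.282). It was 0.20 without shLAC replicate 1 and 0.05 without shLAC replicate 2, so its size depended on the control library used. As deposited, Grm7 was at 29.5 and 27.1 TPM in shCTCF and at 26.6 and 18.9 TPM in shLAC.

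Grm4, a presynaptic receptor best known in the cerebellum, was at 1.90 and 2.11 scaled TPM in shCTCF and at 1.95 and 1.73 scaled TPM in shLAC. The groups overlapped (log2 fold change 0.08, 95% interval -0.11 to 0.27, limma adjusted p = 0.588). With a library left out Grm4 lay between 0.03 (without shLAC replicate 2 or shCTCF replicate 2) and 0.13 to 0.14 (without shCTCF replicate 1 or shLAC replicate 1), and as deposited it was at 0.21. Grm8, which has high affinity for glutamate, stayed below 1 TPM in every library, at 0.94 and 0.89 TPM in shCTCF and 0.88 and 0.68 TPM in shLAC, and was not tested with the others. With the filter lowered to 0.5 TPM the log2 difference of Grm8 was 0.02 (SE 0.0714, limma adjusted p = 0.900). The group III sum was 29.7 and 28.8 scaled TPM in shCTCF and 28.2 and 25.3 scaled TPM in shLAC (109% of the shLAC mean, exact permutation p = 0.333). Over all 6 receptors the sum in shCTCF was 91.0% of that in shLAC after scaling and 104% as deposited, so its direction depends on the scaling.

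The order of the receptors was the same in both groups of libraries. From high to low scaled TPM it ran Grm5, Grm7, Grm3, Grm4, Grm2 and Grm8, and no receptor's range over the 4 libraries overlapped that of the next. The last step was the narrowest, with Grm2 at 1.07 to 1.28 and Grm8 at 0.818 to 0.857 scaled TPM. Grm3 held 82.6% and 81.8% of the group II sum in shCTCF and 82.6% and 83.7% in shLAC. Grm7 held 90.7% and 89.7% of the group III sum in shCTCF and 90.1% and 89.9% in shLAC. Within group II and group III, then, a single receptor made up most of the RNA in every library, and its share overlapped between the groups of libraries.

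The share of each receptor group in the receptor RNA, which no library scaling can change, did not overlap between shCTCF and shLAC. The scaled values of 54.7% of fitted genes did not overlap either. That figure is for single genes, and no such background was worked out for shares. The shares sum to 100%, so a smaller share of Grm5 goes with a larger share of the rest. Grm5 made up 49.8% and 50.3% of the summed TPM of the 6 receptors in shCTCF, against 55.3% and 57.9% in shLAC. Group III made up 41.6% and 41.1% in shCTCF, against 35.5% and 33.3% in shLAC. Grm5 thus held a smaller and group III a larger share in both shCTCF libraries than in either shLAC library. Grm5 stood at 1.32 and 1.37 times the TPM of Grm7 in shCTCF and at 1.73 and 1.93 times in shLAC. These ratios averaged 1.34 ± 0.0327 in shCTCF and 1.83 ± 0.143 in shLAC (SD, n = 2 each, exact permutation p = 0.333, the smallest that this design allows). The Grm5 to Grm3 ratio differed less, at 6.99 and 7.15 in shCTCF and 7.25 and 7.85 in shLAC. The difference in the Grm5 share was -6.52 percentage points, and it lay between -7.82 and -5.22 with each library left out in turn. Group II made up 8.62% and 8.60% in shCTCF and 9.24% and 8.81% in shLAC.

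**Figure D2:**
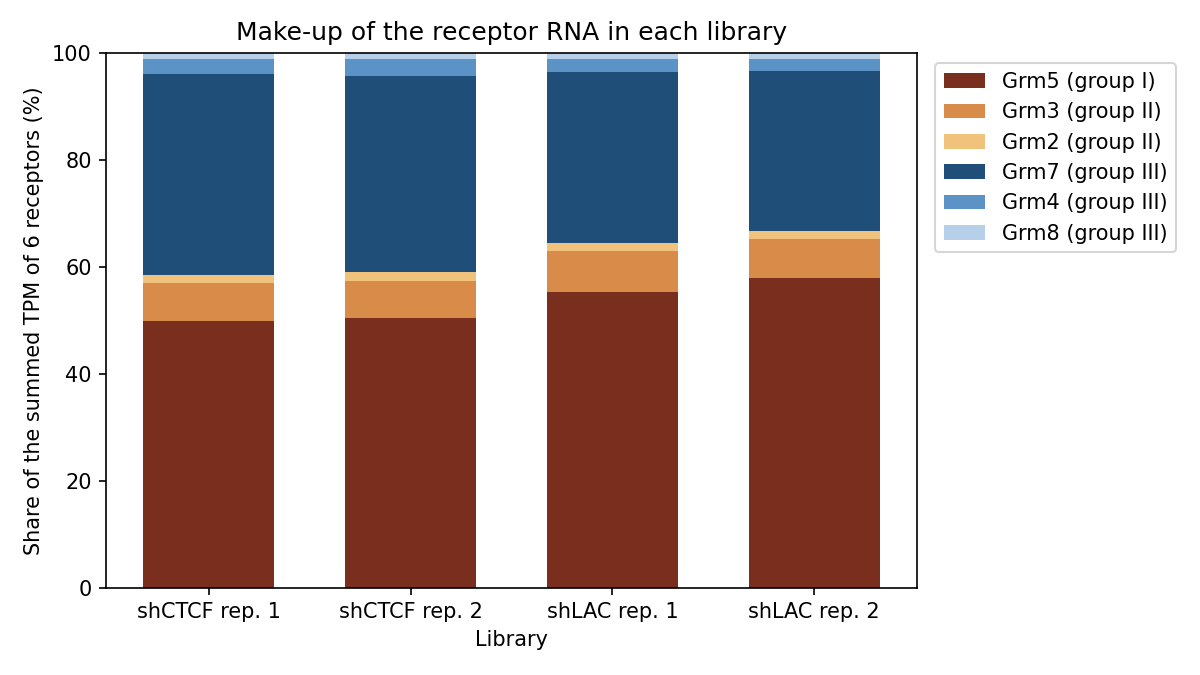
Share of each receptor in the summed TPM of the 6 genes (%), as 1 stacked bar per library, with shCTCF on the left. The Grm5 block ends near 50% in both shCTCF libraries and at 55.3% and 57.9% in the shLAC libraries, and the Grm7 block is taller in shCTCF, at 37.7% and 36.8%, than in shLAC, at 32.0% and 29.9%.

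**Figure D3:**
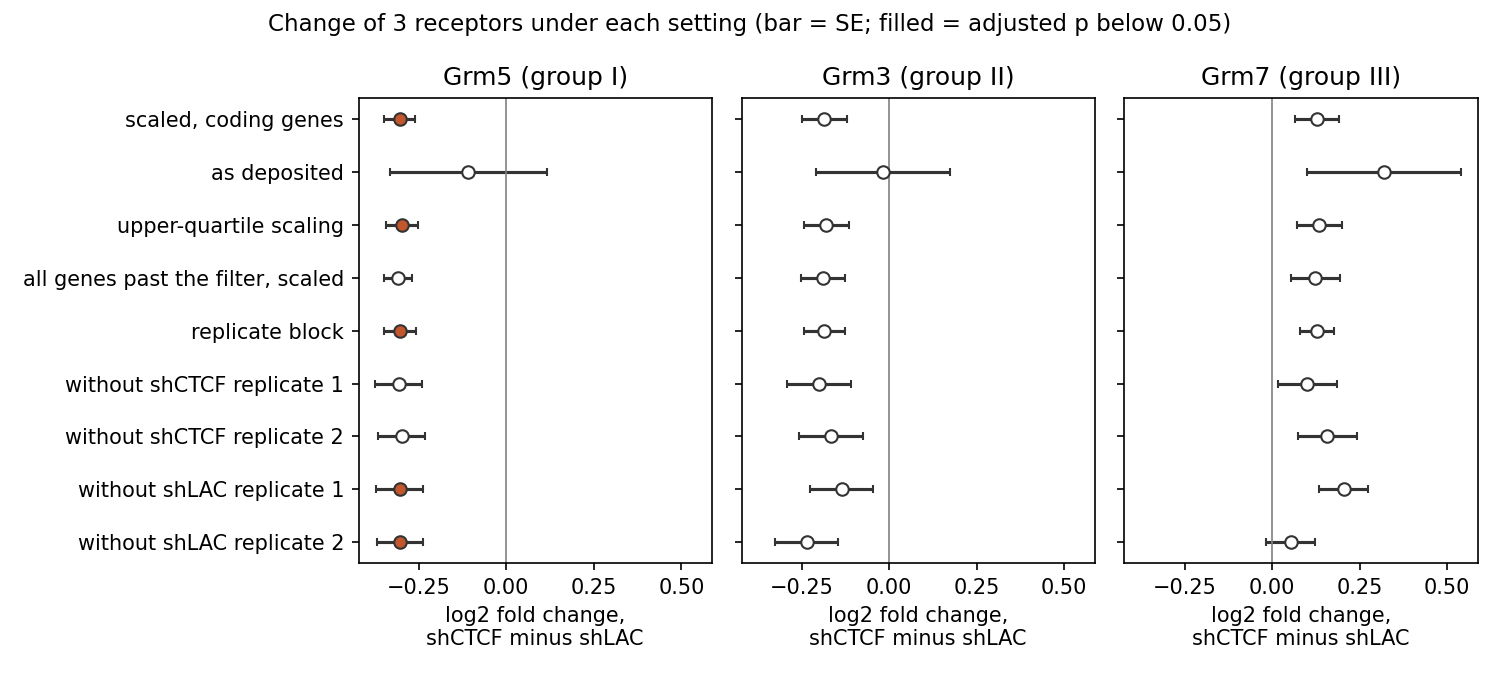
Log2 fold change of Grm5, Grm3 and Grm7 (shCTCF minus shLAC) under 9 settings, with bars for the SE and filled points for a limma adjusted p below 0.05. Grm5 stays between -0.31 and -0.30 in each setting shown other than the values as deposited, where it is -0.11 with a wide error. Grm3 and Grm7 keep their sign and have unfilled points throughout.

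Grm6, the receptor of retinal ON bipolar cells, is not among the 6 and was at 0.01 TPM or listed at 0 in every library.

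The 3 fitted genes whose profile over the 4 libraries was most like that of Grm5 were Acot2, Akap5 and Ccdc85a, out of 11149 compared. Likeness was the Euclidean distance between centred log2 profiles, which was 0.0142, 0.0149 and 0.0172. Akap5, an anchoring protein for protein kinase A, was at 26.1 and 25.9 scaled TPM in shCTCF and 32.0 and 32.6 scaled TPM in shLAC. These genes were picked for their likeness, so their values are no test.

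Genes that group I receptors signal through showed no call. None of 9 tested genes for Gq subunits, phospholipase C, IP3 receptors and protein kinase C passed, with a median log2 fold change of 0.04, against 0.00 over all fitted genes. Prkcb, a conventional protein kinase C, averaged 94.0 ± 0.0991 scaled TPM in shCTCF and 83.8 ± 0.792 in shLAC (SD, n = 2 each, limma adjusted p = 0.0835).

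None of 12 tested scaffold and interactor genes of the Grm5 protein passed. Their median log2 fold change was 0.12, and 8 of the 12 had a positive one. Shank2 came closest to the threshold (log2 fold change 0.24, limma adjusted p = 0.0507). Homer1, the scaffold that binds the site printed above, averaged 39.1 ± 1.45 scaled TPM in shCTCF and 40.2 ± 6.10 in shLAC (log2 fold change -0.03, 95% interval -0.26 to 0.20, limma adjusted p = 0.876). The sign of Homer1 turned in the values as deposited. Ncdn, which encodes a binding partner that keeps the receptor at the surface, averaged 160 ± 9.98 and 148 ± 4.62 scaled TPM in shCTCF and shLAC (limma adjusted p = 0.305).

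Among 10 genes for plasticity proteins downstream of group I receptors, Arc fell and 9 did not pass. Arc, which drives removal of AMPA receptors from the synapse, was at 7.95 and 8.67 scaled TPM in shCTCF and at 21.8 and 13.8 scaled TPM in shLAC. The shLAC libraries differed widely from each other, and both were above the shCTCF libraries. Arc changed by -0.98 on the log2 scale (SE 0.183, limma adjusted p = 0.0333), and the call was lost without shCTCF replicate 1 or 2 (limma adjusted p = 0.0684 and 0.0733), over all genes scaled (0.129) and with no filter on low values (0.110). Its size was -0.67 without shLAC replicate 1 and -1.30 without shLAC replicate 2.

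Among 16 genes through which group II and III receptors act, 3 rose, 0 fell and 13 did not pass, with a median log2 fold change of 0.05. Cacna1a, the pore of P/Q-type calcium channels at axon terminals, was at 9.77 and 9.61 scaled TPM in shCTCF and at 7.82 and 6.94 in shLAC (log2 fold change 0.35, limma adjusted p = 0.0369). Cacna1b, the pore of N-type channels, was at 11.3 and 11.6 scaled TPM in shCTCF and at 9.64 and 8.80 in shLAC (log2 fold change 0.29, limma adjusted p = 0.0493). Gnao1, the Go subunit, was at 82.1 and 83.9 scaled TPM in shCTCF and at 68.8 and 72.7 in shLAC (log2 fold change 0.23, limma adjusted p = 0.0496). All 3 calls were lost over all genes, with no filter and without either shCTCF library, where the log2 fold changes were 0.34 and 0.36 for Cacna1a, 0.30 and 0.27 for Cacna1b, and 0.24 and 0.21 for Gnao1. They were also lost as deposited, where the values were 0.53, 0.47 and 0.43. In that fit the median of all fitted genes was itself 0.17, against 0.00 after scaling. Cacna1b and Gnao1 were lost too at a filter of 0.5 TPM and with a constant prior, Cacna1b without shLAC replicate 2 and Gnao1 without shLAC replicate 1. Their limma adjusted p over the 14 alternatives tried went up to 0.260, 0.421 and 0.545.

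None of 7 tested partners of group III receptors passed. Calm2, which encodes calmodulin, averaged 645 ± 13.9 scaled TPM in shCTCF and 671 ± 2.08 in shLAC (SD, n = 2 each, limma adjusted p = 0.557), with a positive log2 fold change in the values as deposited. None of 11 tested genes for receptor kinases, arrestins and RGS proteins, which end G protein signals, passed. Rgs4 averaged 70.6 ± 11.9 scaled TPM in shCTCF and 75.8 ± 13.8 in shLAC (SD, n = 2 each, limma adjusted p = 0.725). Rgs7 averaged 26.3 ± 3.00 scaled TPM in shCTCF and 30.9 ± 1.97 in shLAC (SD, n = 2 each, log2 fold change -0.23, limma adjusted p = 0.168). Rgs7 depended on the libraries. It was at -0.34 without shCTCF replicate 1 and -0.12 without shCTCF replicate 2. Without shLAC replicate 1 it was at -0.16, and without shLAC replicate 2 at -0.29.

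Genes that set how much glutamate reaches the receptors moved in both directions: of 8 tested, 1 rose, 2 fell and 5 did not pass. Slc1a1, the neuronal glutamate transporter, was at 33.6 scaled TPM in each shCTCF library and at 25.0 and 23.7 scaled TPM in shLAC. Slc1a1 changed by 0.45 on the log2 scale (SE 0.0497, limma adjusted p = 0.00729), but it did not pass as deposited (0.163). With a library left out its log2 fold change lay between 0.41 and 0.49. Slc1a3, an astrocytic transporter, was at 32.6 and 27.8 scaled TPM in shCTCF and at 45.2 and 42.0 in shLAC (log2 fold change -0.52, limma adjusted p = 0.0204). Slc1a2, also an astrocytic transporter, did not pass (log2 fold change -0.12, limma adjusted p = 0.468). Its groups overlapped, at 35.5 and 31.9 scaled TPM in shCTCF and 40.2 and 33.5 in shLAC. Slc7a11, the cystine and glutamate exchanger that supplies glutamate outside synapses, was at 1.07 and 0.716 scaled TPM in shCTCF and at 3.16 and 2.17 in shLAC (log2 fold change -0.95, limma adjusted p = 0.0205). The Slc1a3 and Slc7a11 calls were lost over all genes scaled (limma adjusted p = 0.0951 and 0.0979) and with no filter on low values (0.0734 and 0.0787). They were also lost without shCTCF replicate 2, where the log2 fold changes were -0.40 and -0.81. As deposited, Slc1a3 was at -0.32 and did not pass (limma adjusted p = 0.644). Folh1, which splits NAAG, was at 0.17 to 0.23 TPM and was not tested.

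**Figure D4:**
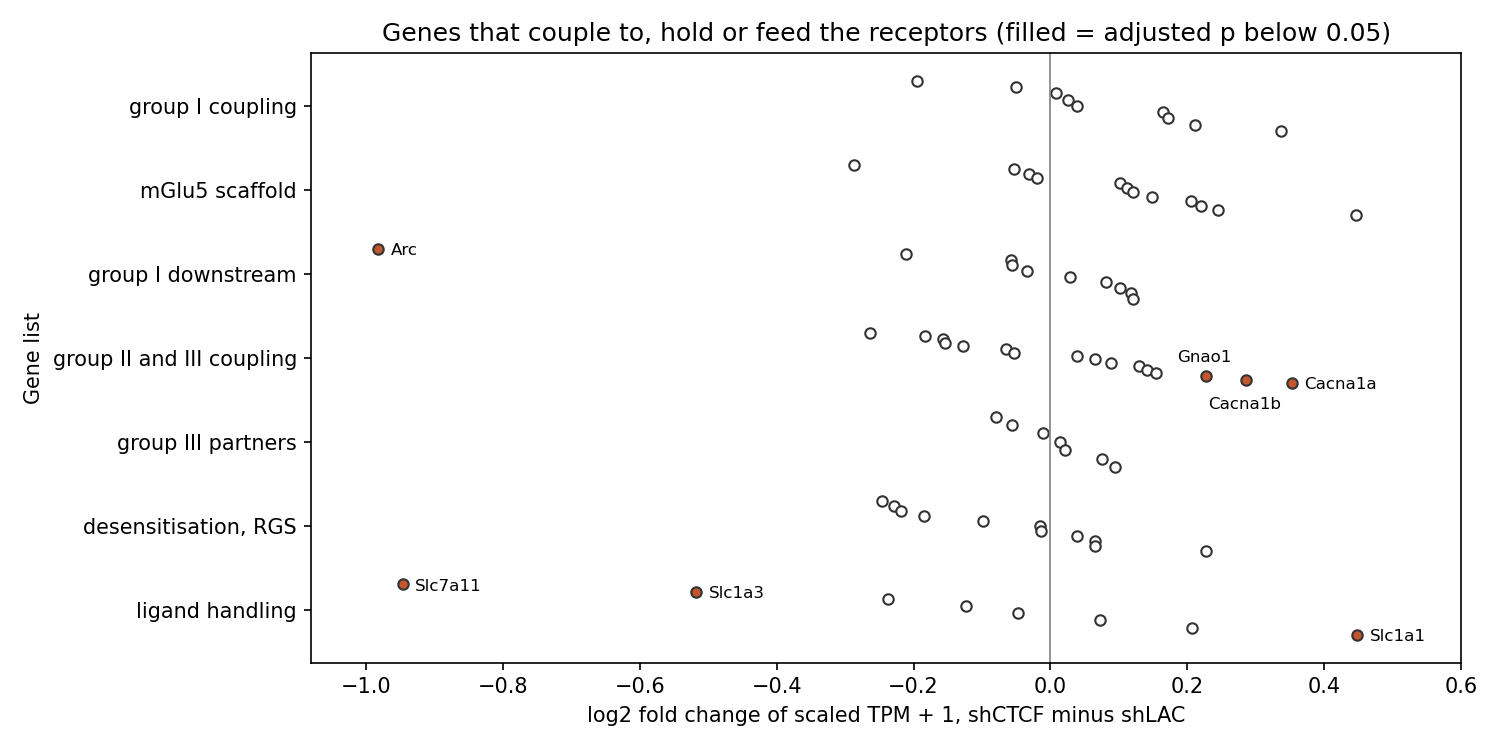
Log2 fold change of scaled TPM + 1 (shCTCF minus shLAC) for each tested gene of 7 lists, 1 point per gene, filled and named where the limma adjusted p was below 0.05. The 7 named genes are Gnao1, Cacna1b, Cacna1a and Slc1a1 to the right of 0 and Arc, Slc7a11 and Slc1a3 to the left, and the group I coupling, scaffold, group III partner and RGS lists hold no filled point.

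Over the 7 lists together, 7 of 73 tested genes (9.59%) were called, against 6.06% of all fitted genes. The lists hold few genes, and nothing particular to them is read from that difference.

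Among cell type markers, 7 of 44 tested genes (15.9%) were called, against 6.06% of all fitted genes. Of 13 tested astrocyte markers, 2 fell (Aqp4 and Slc1a3) and 11 had a negative log2 fold change, with a median of -0.25. Summed over these markers, scaled TPM was 128 and 102 in shCTCF and 159 and 133 in shLAC, and no astrocyte marker was at 0. Slc1a3 and Slc1a2 are part of this sum, so the fall of Slc1a3 given above is counted here again. Of 6 neuronal markers, Syn1 and Rbfox3 rose (limma adjusted p = 0.0228 and 0.0461). The neuronal sum was 992 and 979 scaled TPM in shCTCF and 941 and 985 in shLAC. None of 7 excitatory neuron markers passed, and their sum was 242 and 232 scaled TPM in shCTCF and 199 and 208 in shLAC. Of 9 tested inhibitory markers, Slc32a1 rose and Calb2 fell (limma adjusted p = 0.0462 and 0.0494). The Rbfox3, Slc32a1 and Calb2 calls lie close to the threshold. Of the called markers, only Slc1a3 was followed under the other settings. None of 7 oligodendrocyte lineage markers passed. Among microglial markers only Cd68 was tested, and the 4 endothelial markers stayed below 1 TPM, with Cldn5 listed at 0 in every library. Of 4 fibroblast markers 3 stayed below 1 TPM in every library. Dcn alone was tested, and it fell (limma adjusted p = 0.0216). It was low, at 1.92 and 1.69 scaled TPM in shCTCF and 3.03 and 2.80 in shLAC. The part of these shifts in the Grm5, Grm3 and Slc1a3 values was not tested.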

How the data were processed

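Total RNA of 4 libraries (2 shCTCF, 2 shLAC) was sequenced as paired reads, per the labels' protocols. The authors deposited TPM per Ensembl gene, and each library's values sum to 1000000 within rounding. The submitters' processing notes name RSEM 1.2.28, CASAVA and mm10. Neither an annotation release nor a strand setting is stated there, so antisense reads cannot be separated. GENCODE vM21 (GRCm38, the assembly of mm10) matched 37060 of 37437 identifiers.

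The fit kept protein-coding genes with a transcript of 300 nt or more that reached 1 TPM in 2 or more libraries, without 13 satellite-like genes (numbered Gm models at 100 TPM or more in shLAC replicate 2 and at least 5 times every other library). TPM of these 11268 genes were divided by median-ratio factors and fitted as log2(scaled TPM + 1), which understates changes of low genes, with limma 3.58.1 in R 4.3.3 (trended prior, no covariate, Benjamini-Hochberg at 0.05, prior degrees of freedom 4.57). Sums and shares were compared by exact 2-sided permutation tests (scipy 1.17.1). Coding sequences were aligned end to end with Biopython 1.88.

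The members, gene lists and settings were chosen with earlier results of these data known. Named genes were the members, Ctcf, Grm6, the 3 genes nearest Grm5, and of each list up to 4 called genes, or the 2 most abundant where none was called. Folh1, Slc1a2, Shank2 and the called marker genes were named after their values were seen. Some genes that this rule takes in are not reported here. The fit was tested on simulated data with known changes, with the spreads shuffled among genes. The smallest change simulated was 1.5-fold, of which 72% were recovered. Changes as small as that of Grm5 were not simulated, so the simulation says nothing about calls of that size.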

Additional observations from a re-analysis of the deposited data

How the results depend on the processing

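TPM hold no read counts, so the depth behind Grm8, Grm2 and Grm4 is unknown. With 2 libraries a group, several calls, named beside their values, were lost when a library was left out. The log2 fold change of Grm5 was -0.11 in both fits of values as deposited and -0.31 over all genes scaled, none past the threshold, and -0.31 to -0.30 with each library left out. The count of receptors called lower was 0 in those 3 fits and 0 to 1 with a library left out. Signs turned in the deposited values for Grm2 (0.031), Homer1 (0.16), Calm2 (0.14) and Rgs4 (0.10). The median of all fitted genes was 0.17 in those values, against 0.00 after scaling. With a library left out, Homer1 lay between -0.18 and 0.12 and Rgs4 between -0.28 and 0.086. The cause was not tested.

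Coding genes called higher numbered 291 in the fit reported, 114 as deposited, 47 over all genes scaled, 68 with no filter and 64 to 510 with a library left out. Those called lower numbered 392 in the fit reported, and in the same settings 51, 87, 130 and 118 to 615, with 116 over all genes as deposited. List genes called higher numbered 0 in both deposited fits, 1 over all genes scaled, 1 with no filter, 2 at 0.5 TPM, 2 with a constant prior and 1 to 7 with a library left out. List genes called lower numbered 0 over all genes scaled and with no filter, and 0 to 9 with a library left out.

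The labels do not say that equal replicate numbers mark a shared culture, and deviations of same-numbered libraries correlated at 0.246 over 11268 genes. With the replicate block, Grm5 stayed at -0.30 (limma adjusted p = 0.0102), 597 coding genes were called higher and 716 lower, and 9 list genes were called in each direction, Rgs7 among the lower ones (limma adjusted p = 0.0320). Log2 ratios of the summed receptors as deposited were -0.12 for group I, -0.021 for group II and 0.31 for group III. Under upper-quartile scaling group I was at -0.31, and with a library left out the ratios were -0.32 to -0.31, -0.27 to -0.14 and 0.05 to 0.21 for groups I, II and III.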
